A study of Mus musculus with 16 samples.

Results

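The replication-dependent histone genes were taken as every noncontrol array probe whose gene name begins with Hist1h, Hist2h, Hist3h or Hist4h. The rule found 51 of 39429 noncontrol probes, which carry 46 of the 31093 gene names on the array. By class there were 5 probes for H1, 14 for H2A, 11 for H2B, 8 for H3 and 13 for H4. The arrays measured RNA of 2 sorted mouse bone marrow progenitors, macrophage-dendritic cell progenitors (MDPs), which can still give rise to monocytes and macrophages as well as dendritic cells, and common dendritic cell progenitors (CDPs), the next step toward dendritic cells. The study asked how a distant tumor alters these progenitors. MDP_Normal and CDP_Normal came from age-matched female C57/Bl6 mice without a tumor, and MDP_PyMT and CDP_PyMT from female C57/Bl6 mice with a mammary fat pad tumor of 1.5 cm, grown from 1 transplanted cell line, PyMT B6, which derives from the MMTV-PyMT mammary tumor model. Each group had 4 one-color arrays, numbered 2 to 5 in the labels. Each sample pooled the marrow of a pair of mice by the study's account, and lineage-positive cells were depleted before the sort.

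Replication-dependent histones package newly copied DNA, so their genes are transcribed mainly during S phase, and their transcripts are among the most abundant of dividing cells. The genes lie in clusters, mostly lack introns, and encode nearly the same protein many times over within a class. Most of their mRNAs end in a conserved stem-loop, bound by Slbp, in place of a poly(A) tail, although some genes of the family also give polyadenylated transcripts. How the labelling primed the RNA is not given in the sources used here, and an amplification that starts from poly(A) tails would see only part of these transcripts.

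The stem-loop itself lay inside 4 histone probes. It was searched as an arm of 6 bases beginning GG, a loop of 4 bases beginning TT and a second arm that is the reverse complement of the first, on both strands, and 7 of all 39429 noncontrol probes (0.0178%) held it. The 30 bases around it, read in the sense of the transcript, are shown with both arms in capitals because they mark these probes as covering the 3′ end of the processed histone mRNA.
Hist1h3a: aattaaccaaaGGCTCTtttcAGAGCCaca
Hist1h3i: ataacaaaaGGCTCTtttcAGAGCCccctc
Hist1h4m: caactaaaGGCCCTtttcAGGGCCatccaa
Hist2h2bb: acccaaaaGGCTCTtttcAGAGCCacttta

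Many other probes lay in the coding sequence, where the genes of a class are nearly alike. Of the 51 probes, 18 shared a run of 20 bases with another histone probe. The H2A probes of Hist1h2af, Hist1h2ag, Hist1h2ah, Hist1h2ak, Hist1h2an and Hist2h2aa2 were linked by pairs of 90% identity or more over at least 40 overlapping bases (90 to 95.8%), as were the H4 probes of Hist1h4d, Hist1h4j and Hist1h4k (92.3 to 95.8%). The signal of these 9 probes cannot be assigned to single genes. Probes were compared only with other probes of the array, not with the transcripts of the family. The remaining probes are thus not shown to report single genes either. Below, 4 of the H2A probes, all 60 bases that end in the stop codon, are shown with the bases that differ from Hist1h2af in capitals. Each of the other 3 differs from it at 5 bases.
Hist1h2af: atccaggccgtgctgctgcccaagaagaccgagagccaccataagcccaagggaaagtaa
Hist1h2ak: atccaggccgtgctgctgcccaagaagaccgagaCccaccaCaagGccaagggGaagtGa
Hist1h2an: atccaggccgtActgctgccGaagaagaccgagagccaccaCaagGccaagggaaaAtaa
Hist2h2aa2: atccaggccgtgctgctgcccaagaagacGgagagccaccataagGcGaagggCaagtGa

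The probes of Hist1h3c and Hist1h3f, which are described with the tumor comparison in MDPs, lay at the other end of the mRNA, across the start codon (capitals), and share a run of 20 bases. The probe of Hist3h2bb-ps, a gene annotated as an H2B pseudogene, also held a start codon, and the probe of Hist2h2be shared no run of 20 bases with another histone probe. These stretches are shown because these 4 include both probes called in a comparison below and the 3 with the largest t statistics for the tumor change in MDPs.
Hist1h3c: agaATGgctcgtactaagcagaccgctcgc
Hist1h3f: gaaATGgctcgtactaagcagaccgctcgc
Hist3h2bb-ps: agacattATGcctgatccatccaaatcagc
Hist2h2be: aagtctgttcctgaactggcattagagccc

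By the mm9 positions in the scanner files, 39 probes of the Hist1 cluster lay on chromosome 13 between 21814057 and 24026527, in 2 blocks with a gap from 22134451 to 23622937. The Hist2 probes lay on chromosome 3 between 96024171 and 96074115, except the Hist2h2aa2 probe, which the files place on chromosome 13 at 51298057 to 51298116, and the Hist2h3c2 probe, which has no position, like a second probe of Hist1h4i. Hist3h2bb-ps was on chromosome 11 (58767908 to 58767967) and Hist4h4 on chromosome 6 (136752681 to 136752740).

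All 46 gene names were matched to RefSeq, 40 of them through the transcript accession of the probe, and 40 genes had a promoter window of 300 bases (250 before to 50 after the start, assembly GRCm38.p6). The octamer ATTTGCAT, a motif long known from H2B promoters, was found on either strand in 5 of 8 H2B and 6 of 13 H2A windows and in none of the 5 H1, 6 H3 or 8 H4 windows, against 1.75% of all 27025 promoter windows. Windows were counted by gene, and whether neighbouring H2A and H2B genes share the same octamer was not examined. CCAAT was found in 34 of the 40 windows (37.9% of all windows) and TATAAA in 24 (14.2%), but CCAAT in only 2 of 8 H4 windows. The 250 bases before the start of Hist2h2bb (RefSeq H2bc18, GRCm38.p6 chr3:96269450-96269699, plus strand), a gene described below in CDPs against MDPs, are shown with the octamer in capitals. Hist2h2be and Hist3h2bb-ps had no window in the table.
Hist2h2bb promoter: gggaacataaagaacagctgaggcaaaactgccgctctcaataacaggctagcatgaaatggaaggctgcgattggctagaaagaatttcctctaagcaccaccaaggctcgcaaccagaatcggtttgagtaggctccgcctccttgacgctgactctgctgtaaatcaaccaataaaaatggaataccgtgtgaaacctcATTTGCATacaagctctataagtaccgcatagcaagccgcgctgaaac

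Most histone probes gave a clear signal. A probe was tested where 3 or more of the 4 arrays of any group rated it well above background. This held for 48 of the 51, of which 46 had that rating on all 16 arrays. The probes not tested were Hist1h1d (an H1 linker histone, 3 arrays), Hist1h2ac (H2A, 6 arrays) and Hist1h2bq (H2B, 2 arrays). Hist1h2bp (H2B) was tested on the strength of CDP_PyMT, where 3 of 4 arrays were well above background, and Hist1h2ae (H2A) was well above background on 13 arrays. Signals are given as log2 intensity minus the array's 75th percentile of all probes, so 0 is the 75th percentile, and changes are differences of group means on that scale, fitted by limma over all 27433 tested probes. A probe was called where the Benjamini-Hochberg adjusted p was under 0.05 and the fold change above 1.5. The tested probe with the highest signal in each class was Hist1h1b for H1 (mean over 16 arrays 4.30), Hist2h2aa2 for H2A (6.10), Hist1h2ba, known as a testis H2B variant, for H2B (5.48), Hist1h3d for H3 (5.66) and one of 2 Hist2h4 probes for H4 (6.51), but signals of different probes are not comparable as amounts of RNA.

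The median over the 48 tested probes ran from 4.0 to 4.68 in MDP_Normal, 4.10 to 4.84 in MDP_PyMT, 3.99 to 4.75 in CDP_Normal and 4.64 to 5.05 in CDP_PyMT. The group medians of these array values were 4.20, 4.51, 4.66 and 4.79, in that order, and neighbouring groups in the order overlapped. The 16 arrays were on 4 slides, and the slide alone accounted for 66.3% of the variance of these array medians, against 34.6% for the group alone. On slide 1 the 4 arrays lay at 4.0 (MDP_Normal), 4.10 and 4.24 (MDP_PyMT) and 3.99 (CDP_Normal), below every array of CDP_PyMT, of which slide 1 holds none. Slides 2 and 3 held 1 array of each group, and on both MDP_Normal was the lowest, at 4.22 and 4.17, while the other 3 arrays lay at 4.61 to 4.77 on slide 2 and 4.64 to 4.84 on slide 3. Slide 4 held no MDP_PyMT array. Replicate arrays correlated at 0.904 to 0.977 over all tested probes. The 48 histone probes moved together across the 16 arrays (median pairwise r 0.718), so the counts of probes given below are not counts of independent results.

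**Figure D1:**
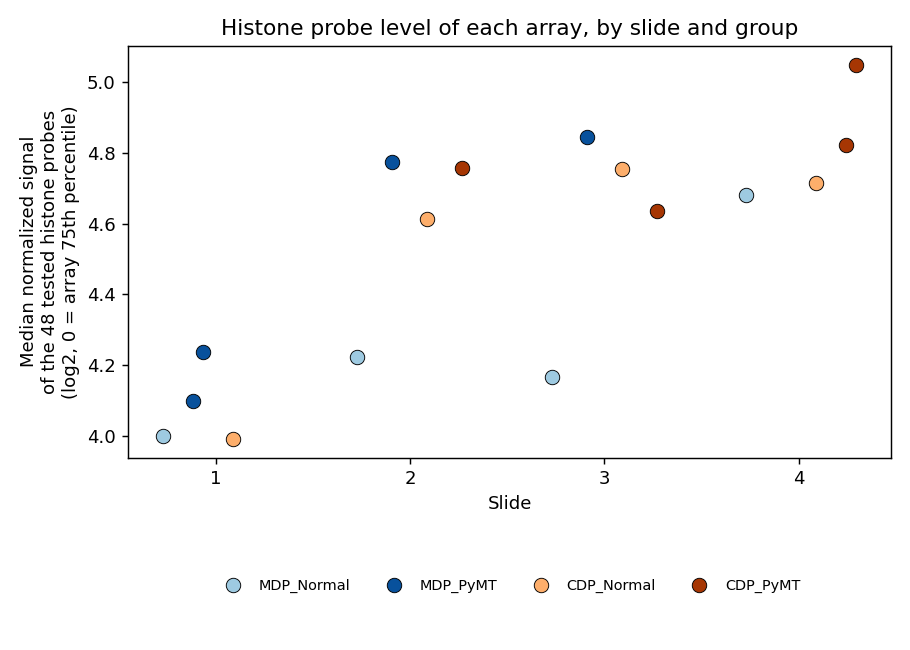
Each point is 1 array, the y axis its median normalized signal over the 48 tested histone probes (log2, 0 is the array's 75th percentile) and the x axis its slide, with color for the group. The 4 arrays of slide 1 sit between 3.99 and 4.24, and on slides 2 and 3 the MDP_Normal array, at 4.22 and 4.17, sits below the other 3.

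In MDPs, no histone probe was called with a tumor (MDP_PyMT against MDP_Normal), where 0.0656% of all tested probes were called, and 5 of 48 had an unadjusted limma p under 0.05, against 10.4% of all tested probes. The fitted change was above 0 for 38 of 48 probes, against 39.5% of all tested probes, and its median was 0.13 against -0.12 for all tested probes. With quantile normalization in place of the 75th percentile these medians were 0.077 and 0.0012. The share of noncontrol probes well above background had a median of 62.4% in MDP_PyMT. It was 67.0% in MDP_Normal, 67.8% in CDP_Normal and 68.6% in CDP_PyMT, with overlapping ranges, and its part in these medians was not tested. H3 had 8 of 8 probes above 0 (median 0.15), H2A 11 of 13 (0.10), H4 11 of 13 (0.13), H1 3 of 4 (0.15) and H2B 5 of 10. For 40 of the 48 probes the 95% interval of the change lay within 1 log2 unit, a 2-fold change, either way. The median turned below 0 when MDP_Normal 3, MDP_PyMT 3 or MDP_PyMT 5 was left out (-0.0057, -0.014 and -0.029).

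The largest t statistics in MDPs belonged to 1 H2B probe that was lower and 2 H3 probes that were higher with a tumor. Hist2h2be, an H2B gene known for polyadenylated transcripts in non-dividing cells, gave -1.67, -2.18, -1.72 and -1.76 in MDP_Normal and -2.75, -3.08, -3.15 and -2.25 in MDP_PyMT (samples 2 to 5). All 4 tumor arrays were below all 4 tumor-free arrays, and the change was -0.98 ± 0.21 (SE, limma, Benjamini-Hochberg adjusted p = 0.152, exact two-sided permutation p = 0.0286, the smallest that 4 arrays against 4 allow). Without MDP_PyMT 5, the tumor array with the highest value, it was called (-1.16, adjusted p = 0.0388).
Hist1h3f, which encodes a canonical H3, gave 2.14, 2.74, 2.61 and 2.44 in MDP_Normal and 3.31, 3.03, 3.27 and 2.85 in MDP_PyMT. Again the groups did not overlap, with a change of 0.63 ± 0.15 (adjusted p = 0.195, exact permutation p = 0.0286).
Hist1h3c, another H3 gene, gave 3.38, 3.77, 3.56 and 3.60 in MDP_Normal and 4.0, 3.95, 4.09 and 3.80 in MDP_PyMT, likewise without overlap (0.38 ± 0.12, adjusted p = 0.335). These were the 2 of 48 histone probes whose tumor arrays all lay above the tumor-free arrays in MDPs, against 2.7% of all tested probes. Within single slides Hist1h3f was 0.55, 0.89 and 0.41 higher and Hist2h2be differed by -0.77, -1.41 and -0.48 on slides 1, 2 and 3.

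In CDPs, no histone probe was called with a tumor either (CDP_PyMT against CDP_Normal), where 1.8% of all tested probes were called, and 1 of 48 had an unadjusted p under 0.05, against 13.7% of all. The fitted change was above 0 for 41 of 48 probes against 57.6% of all tested probes, with a median of 0.27 against 0.075. With quantile normalization the medians were 0.025 and 0.027. Leaving out the CDP_Normal array 5, the only CDP array on slide 1, took the median to 0.088. By class the median was 0.38 for H1, 0.30 for H2A, 0.21 for H2B, 0.19 for H3 and 0.25 for H4.

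The CDP tumor arrays lay wholly above the tumor-free ones for 4 of 48 probes, against 5.72% of all tested probes. They were Hist1h1e (a linker histone), Hist1h2aa (a testis H2A variant), Hist3h2bb-ps and Hist1h3f, and of these Hist1h2aa was among the 3 largest t statistics. It gave 3.32, 3.35, 3.09 and 2.68 in CDP_Normal and 3.52, 4.06, 3.46 and 3.39 in CDP_PyMT, a change of 0.50 ± 0.24 (adjusted p = 0.391), or 0.28 with quantile normalization or the deposited value table and 0.30 with slide as a block. The largest t was downward, in Hist1h4m, whose probe spans the stem-loop shown above.
Hist1h4m gave 1.14, 1.53, 1.52 and 1.0 in CDP_Normal and 0.84, 0.36, 0.69 and 1.04 in CDP_PyMT, 2 groups that overlapped, with a change of -0.56 ± 0.24 (adjusted p = 0.318). The weaker of the 2 Hist2h4 probes gave 4.40, 4.49, 4.67 and 3.98 in CDP_Normal and 4.80, 5.05, 4.76 and 4.66 in CDP_PyMT, with a change of 0.43 ± 0.20 (adjusted p = 0.368), or 0.14 with quantile normalization or the deposited value table. The other Hist2h4 probe differed by 0.25 in CDPs and 0.20 in MDPs, where the weaker one differed by 0.59, and none of these passed the test.

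**Figure D2:**
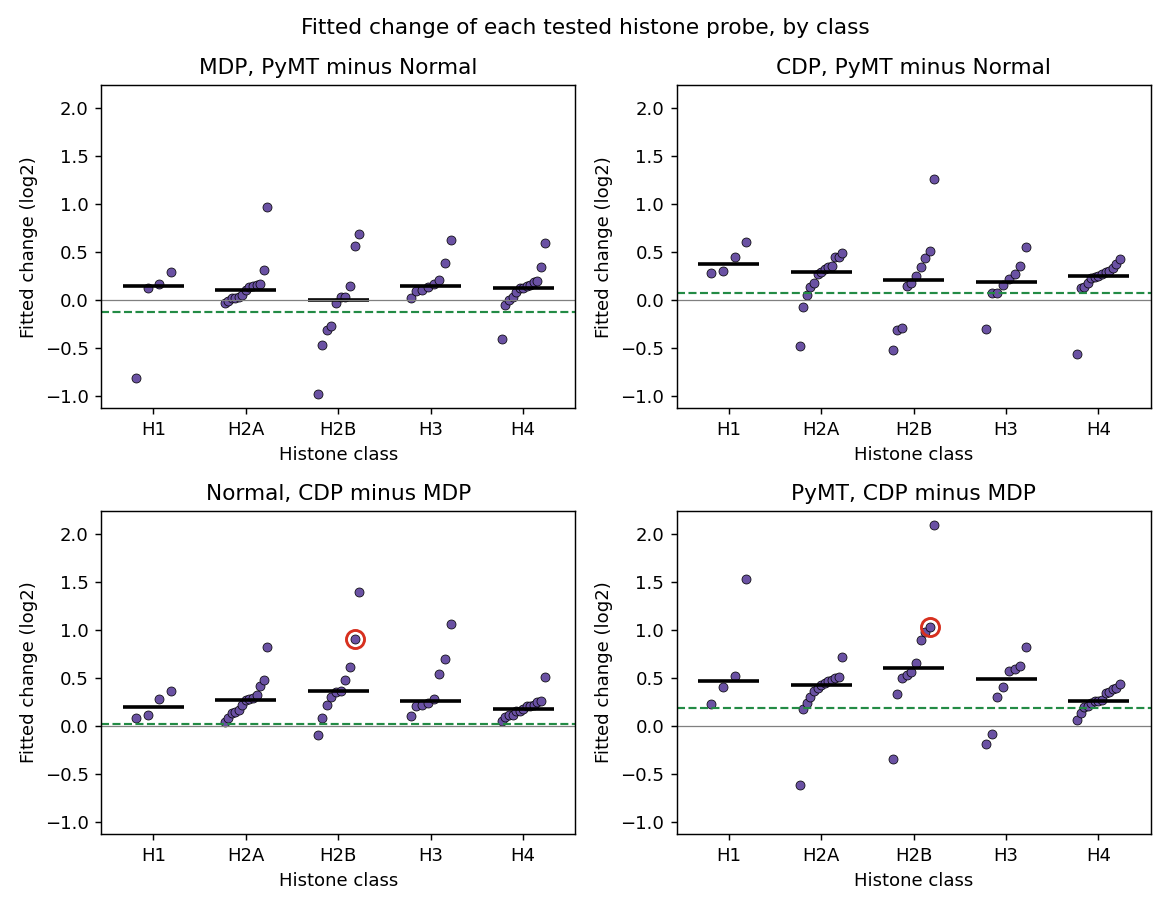
Each point is 1 of the 48 tested histone probes, the x axis its class and the y axis its fitted change (log2) in the comparison named above the panel, with a black bar at the class median, a dashed green line at the median of all 27433 tested probes, and a red ring around a called probe. No probe is ringed in the upper, tumor panels, and 1 H2B probe is ringed in each lower panel (0.91 and 1.03). The highest H2B point of the panels other than the MDP tumor panel is Hist1h2bp, which was well above background on 7 of 16 arrays.

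No histone probe was called for a difference in tumor change between CDPs and MDPs by limma's interaction term (0 called, 0.0146% of all tested probes called, 2 of 48 with an unadjusted p under 0.05, against 4.03% of all). The 2 probes were Hist2h2be (0.67 ± 0.30, adjusted p = 0.748) and Hist1h3f (-0.47 ± 0.21, adjusted p = 0.748). The difference was above 0 for 35 of 48 probes, against 61.8% of all, with a median of 0.14 against 0.15. Its sign depended on the processing. The median was -0.063 with quantile normalization and -0.22 with slide as a block in the fit, where 3 of 48 probes were above 0.

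In tumor-free mice, 47 of 48 histone probes were fitted higher in CDPs than in MDPs, against 52% of all tested probes, and 1 was called, against 6.1% of all tested probes. Within slides 1 to 4, with 1 array a group, 30, 42, 46 and 28 of 48 were higher in CDPs. The shares of all tested probes were 46.9%, 53.4%, 54% and 50.2%. The median difference was 0.23 against 0.017 for all probes, and 0.18 against -0.0023 with quantile normalization. All 4 H1, 13 H2A, 8 H3 and 13 H4 probes and 9 of 10 H2B probes were above 0, with class medians from 0.17 (H4) to 0.36 (H2B). The exception was Hist1h2bc (H2B), at -0.090. The arrays of CDP_Normal lay wholly above those of MDP_Normal for 5 of 48 probes, against 6.53% of all tested probes, and 6 of 48 had an unadjusted p under 0.05, against 17.1% of all.

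The called probe was that of the H2B pseudogene Hist3h2bb-ps. It gave -0.86, -1.68, -0.73 and -0.91 in MDP_Normal and 0.07, 0.02, -0.22 and -0.42 in CDP_Normal, with every CDP array above every MDP array. The difference was 0.91 ± 0.23 (SE, 95% interval 0.42 to 1.39, limma adjusted p = 0.0270), a 1.87-fold change. It was 1.26, 0.64, 0.98 and 0.75 within slides 1 to 4. The call was lost with normexp background correction (adjusted p = 0.105), with the replicate number as a block (0.0695), with only both groups in the fit (0.0834), and when MDP_Normal 3 or 5 or CDP_Normal 2, 3 or 4 was left out (0.0529 to 0.0874).

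Behind it came Hist2h3c2, an H3 gene, and the weaker Hist2h4 probe. Hist2h3c2 gave -3.07, -1.85, -2.03 and -1.72 in MDP_Normal and -1.42, -0.71, -1.46 and -0.82 in CDP_Normal, without overlap (1.07 ± 0.42, adjusted p = 0.177). Hist2h4 gave 3.94, 3.72, 4.22 and 3.63 in MDP_Normal, and CDP_Normal, whose values are given above, was 0.51 ± 0.20 higher (adjusted p = 0.189), with 1 CDP array inside the MDP range. The other Hist2h4 probe was 0.21 higher. The 4 stem-loop probes were 0.22 to 0.70 higher in CDPs, and none was called.

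In tumor-bearing mice, 44 of 48 histone probes were fitted higher in CDPs than in MDPs, against 61.6% of all tested probes, with a median of 0.40 against 0.19, and 1 was called, against 7.26% of all. With quantile normalization the medians were 0.097 and -0.0034. Slide 1 held 2 MDP_PyMT and no CDP_PyMT arrays and slide 4 the reverse. With slide as a block the median was 0.0085, with 27 of 48 probes above 0, and on slides 2 and 3, which held both groups, it was -0.027 and -0.043. The 4 probes below 0 were Hist1h2ae, Hist1h2bc, Hist1h3c and Hist1h3f. H2B had the highest class median (0.61) and H4 the lowest (0.26). Arrays of CDP_PyMT lay wholly above those of MDP_PyMT for 4 of 48 probes (Hist2h2be, Hist2h2bb, Hist3h2bb-ps and Hist1h3i), against 7% of all tested probes, and 5 of 48 had an unadjusted p under 0.05, against 27.8% of all.

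Hist2h2be was the called probe. CDP_PyMT gave -1.95, -1.93, -1.86 and -1.36, against the MDP_PyMT values of -2.25 or less given above, a difference of 1.03 ± 0.21 (95% interval 0.57 to 1.49, limma adjusted p = 0.00948) or 2.05-fold. It was 1.22 on slide 2 and 0.89 on slide 3, the slides that held both groups, and it was called in 16 of 16 fits that left out 1 array (adjusted p 0.00257 to 0.0341), but not with only both groups in the fit (0.0762). With normexp background correction it was 0.68 (adjusted p = 0.0481). In tumor-free CDPs the probe gave -1.47, -1.58, -1.19 and -1.63, all above MDP_Normal, with a difference of 0.36 that was not called.
Hist2h2bb, whose stem-loop and promoter are shown above, gave 0.16, 1.19, 0.07 and 1.05 in MDP_PyMT and 1.45, 1.84, 1.53 and 1.24 in CDP_PyMT, a difference of 0.90 ± 0.28 (adjusted p = 0.0671). With slide as a block it was 0.41 (adjusted p = 0.144), and it was called without MDP_PyMT 3 (1.09, adjusted p = 0.0377) or MDP_PyMT 5 (1.04, 0.0397). The lower MDP_PyMT values were those of arrays 2 and 4, both on slide 1. In tumor-free mice it gave 0.66, 0.25, 1.12 and 0.57 in MDPs and 1.37, 1.57, 1.34 and 0.78 in CDPs, a difference of 0.62 (adjusted p = 0.27), with 1 CDP array within the MDP range.
Hist3h2bb-ps gave -0.91, -0.09, -0.23 and -0.20 in MDP_PyMT and 0.27, 0.37, 0.14 and 0.41 in CDP_PyMT, a difference of 0.65 ± 0.23 (adjusted p = 0.0930), or 0.34 with slide as a block (adjusted p = 0.277). It was called without MDP_Normal 3 (adjusted p = 0.0454). No difference is given for Hist1h2bp, which was tested through its CDP_PyMT arrays and was well above background on 1 of 4 MDP_PyMT arrays.

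**Figure D3:**
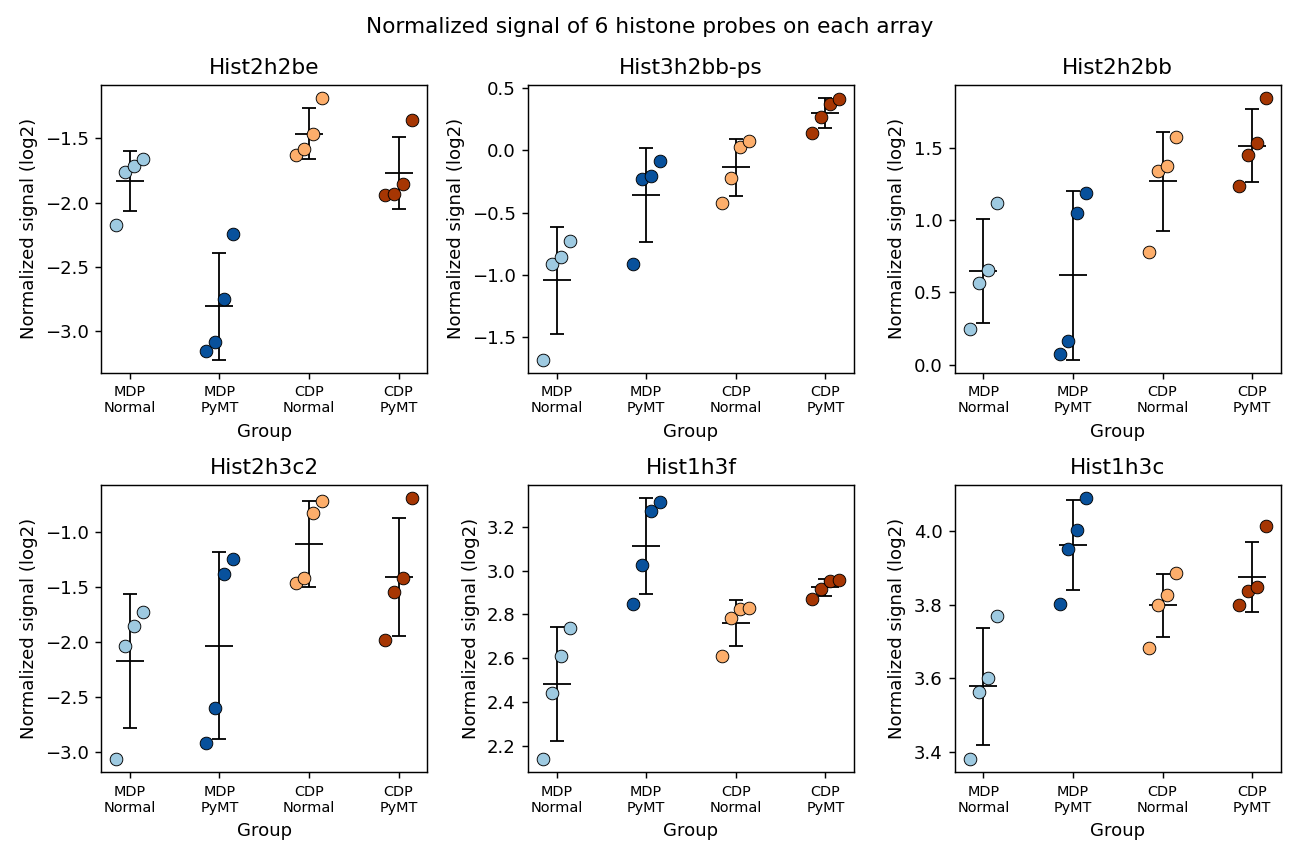
Each point is 1 array, the y axis the normalized signal (log2, 0 is the array's 75th percentile) and the x axis the group, with a horizontal tick at the mean and bars of 1 SD (4 arrays a group). Hist2h2be is lowest in MDP_PyMT (-3.15 to -2.25), Hist3h2bb-ps is lowest in MDP_Normal (-1.68 to -0.73), and Hist1h3f and Hist1h3c are lowest in MDP_Normal.

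With slide as a block in the fit, the medians of the 48 probes differed from those above, except for CDPs against MDPs in tumor-free mice. The tumor change in MDPs rose to 0.31 (43 of 48 above 0, all probes -0.026), with 20 of 48 probes at an unadjusted p under 0.05, against 18.9% of all tested probes, and 0 called, against 0.16% of all. The tumor change in CDPs was 0.070 (34 of 48 above 0, all probes -0.055), with 0 called, against 4.55% of all. For CDPs against MDPs in tumor-free mice the median was again 0.23 (47 of 48 above 0). Both groups had the same number of arrays on every slide, so the block could not change these estimates and is no check on them. In tumor-free mice 2 probes were called under the block, against 10.7% of all, Hist3h2bb-ps (0.91, adjusted p = 0.00269) and Hist2h2bb (0.62, adjusted p = 0.0106). In tumor-bearing mice Hist2h2be alone was called (0.96, adjusted p = 0.0153), against 6.31% of all.

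Within single slides the tumor change in MDPs had a median of 0.047 on slide 1, 0.46 on slide 2 and 0.51 on slide 3, and the tumor change in CDPs 0.13, -0.072 and 0.15 on slides 2, 3 and 4. CDPs against MDPs in tumor-free mice gave 0.051, 0.35, 0.50 and 0.022 on slides 1 to 4. Each of these rests on 1 or 2 arrays a group and has no test.

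**Figure D4:**
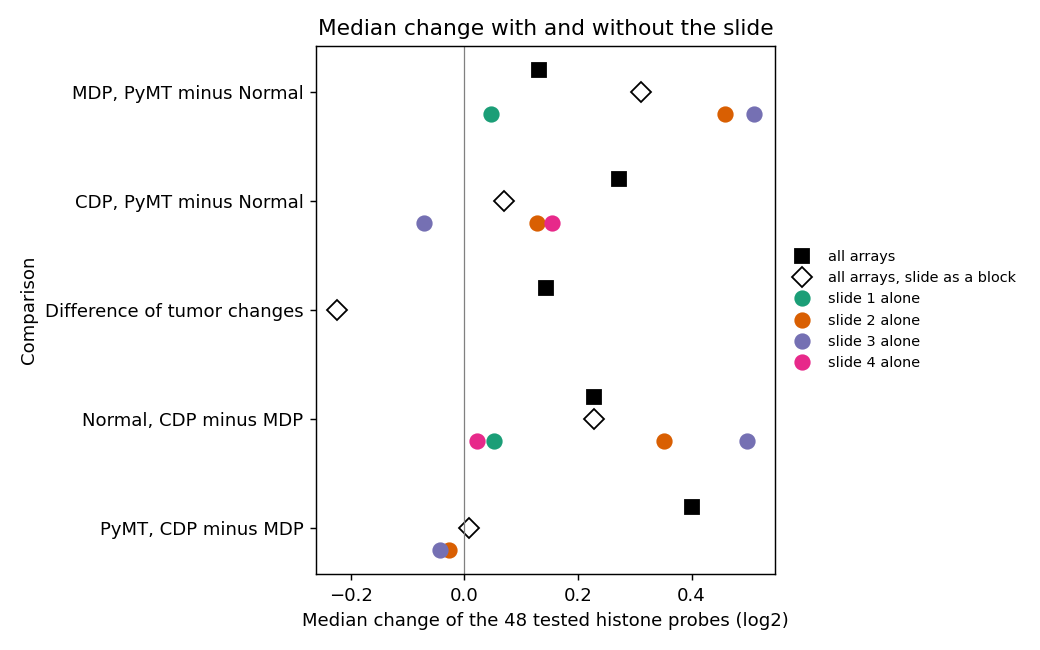
The x axis is the median change (log2) of the 48 tested histone probes and the y axis the comparison, with a square for the fit over all arrays, an open diamond for the fit with slide as a block, and a colored point for each slide that holds both groups. The diamond lies at 0.31 for the tumor change in MDPs and at 0.0085 for CDPs against MDPs in tumor-bearing mice, and it lies on the other side of 0 from the square for the difference of the tumor changes (-0.22 against 0.14), whose sign also turned with quantile normalization.

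The probe with the highest signal of each class was followed on every array. Hist1h1b, a linker histone, gave 3.94, 3.28, 4.67 and 3.82 in MDP_Normal, 3.65, 4.78, 3.77 and 4.68 in MDP_PyMT, 4.49, 4.60, 4.29 and 3.79 in CDP_Normal and 4.87, 5.05, 4.64 and 4.43 in CDP_PyMT. Hist2h2aa2 gave 6.01, 5.30, 6.17 and 6.06 in MDP_Normal, 5.72, 6.29, 5.73 and 6.35 in MDP_PyMT, 6.36, 6.46, 6.31 and 5.70 in CDP_Normal and 6.18, 6.38, 6.28 and 6.21 in CDP_PyMT. In each of these 2 probes the groups overlapped in all 4 comparisons above, and the lowest value of the MDP_Normal and CDP_Normal groups was that of the slide 1 array.
The Hist1h2ba probe gave 5.28, 4.89, 5.83 and 5.11, 4.85, 5.74, 4.84 and 5.80, 5.80, 5.73, 5.54 and 4.90 and 5.70, 6.12, 5.96 and 5.57 in the same order of groups. The Hist1h3d probe gave 5.42, 5.10, 6.08 and 5.10, 5.07, 6.02, 5.32 and 5.96, 5.85, 5.88, 5.59 and 5.22 and 5.84, 6.33, 5.99 and 5.83. The stronger Hist2h4 probe gave 6.56, 5.87, 6.41 and 6.32, 6.42, 6.76, 5.96 and 6.82, 6.78, 6.69, 6.40 and 6.14 and 6.64, 6.73, 6.76 and 6.88. None of the 5 was called in any comparison.

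The probes also differed by base composition, a split made after their values were seen. Of the 48 tested probes, 31 had a GC content of 50% or more, and all 31 had a fitted tumor change above 0 in CDPs (0.058 to 0.51). Of the 17 with a lower GC content, whose lowest change was -0.56, 10 were above 0. These 10 include Hist1h2bp, which was tested through its CDP_PyMT arrays. In MDPs the counts were 28 of 31 and 10 of 17. In tumor-free mice CDPs were fitted above MDPs for 31 of 31 and 16 of 17. The split was not made over all tested probes, so whether it is particular to histone probes was not tested. The 6 near-identical H2A probes had a median pairwise r of 0.906 across the 16 arrays, against 0.718 over all pairs of tested histone probes, arrays that share slides and scaling.

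None of 26 tested genes for histone mRNA transcription and processing was called in any comparison. Slbp, which binds the stem-loop, differed by 0.12 with a tumor in CDPs and 0.18 in MDPs, and was 0.25 higher in tumor-free CDPs than in MDPs, and none of these passed the test. The list's median with a tumor was 0.074 in CDPs and 0.092 in MDPs, against 0.075 and -0.12 for all tested probes. For CDPs against MDPs it was -0.035 (tumor-free) and -0.064 (tumor-bearing), against 0.017 and 0.19 for all tested probes. Of 11 replication-independent histone genes, such as H2afz and H3f3b, none was called either.
Of 23 histone chaperone genes, Asf1b, which carries H3 and H4 to replicating DNA, was called higher in CDPs than in MDPs, by 0.76 ± 0.12 in tumor-free mice (adjusted p = 0.00165) and 0.65 ± 0.12 in tumor-bearing mice (0.00514). Set, a histone chaperone, was called lower in CDPs of tumor-bearing mice (-0.59 ± 0.16, adjusted p = 0.0383). Of 40 S phase genes, E2f2, an E2F transcription factor, was called higher in CDPs, by 1.37 ± 0.15 (tumor-free) and 1.50 ± 0.15 (tumor-bearing), and none was called with a tumor. Over all tested probes, 6.1% were called between CDPs and MDPs in tumor-free mice and 7.26% in tumor-bearing mice.
For CDPs against MDPs the S phase list had a median difference of 0.025 without a tumor and -0.067 with one. The medians of all tested probes were 0.017 and 0.19. The summed signal of the S phase list stayed between 7.56 and 7.80 (log2) on all 16 arrays. In these sorted pools more cells in S phase and more histone RNA per cell cannot be told apart.

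Of the listed MDP and CDP markers, only Kit and Csf2ra were called between the labelled cell types. Kit, the stem cell factor receptor, was lower in CDPs than in MDPs by -2.59 ± 0.20 in tumor-free mice, and Csf2ra was higher by 0.79 ± 0.15. Flt3, Csf1r, Cx3cr1 and Irf8 were fitted 0.41, 0.51, 0.90 and 0.22 higher in tumor-free CDPs and were not called. All 6 MDP and CDP markers were well above background on all arrays. With a tumor Kit was also called lower in CDPs (-1.34 ± 0.20, limma adjusted p = 0.00427). Of the 6 markers, 1 was above 0 with a tumor in CDPs (median -0.50 against 0.075 for all tested probes). In MDPs 0 were above 0 (median -0.13 against -0.12), and 0 were called. Neutrophil markers had a summed signal (10 tested of 11 listed) of 5.60 to 6.12 in CDP_Normal, 6.47 to 7.01 in CDP_PyMT, 6.48 to 7.05 in MDP_Normal and 6.59 to 7.34 in MDP_PyMT. With a tumor 7 of 10 were above 0 in CDPs (median 0.71) and 7 of 10 in MDPs (0.13), with Elane and Lcn2 called higher in CDPs and Lcn2 in MDPs, while the granule genes Ltf, Camp and Ngp were below 0 in both and not called. For CDPs against MDPs 5 of 10 were above 0 in tumor-free mice (median 0.0033, from -1.85 for Elane to 3.03 for S100a9) and 6 of 10 in tumor-bearing mice (0.27), with Elane called lower in both states and Prtn3 in tumor-free mice. Erythroid markers had a summed signal (5 tested) of 1.46 to 3.43 in CDP_Normal, 0.81 to 2.05 in CDP_PyMT, 1.2 to 2.38 in MDP_Normal and 0.91 to 1.33 in MDP_PyMT. All 5 tested were below 0 with a tumor, with medians of -1.44 in CDPs and -0.91 in MDPs, and 0 were called. For CDPs against MDPs 2 of 5 were above 0 in either state, the globin genes Hba-a1 (0.81 in tumor-free mice) and Hbb-b1 (1.52), and Klf1, an erythroid factor, was called lower in both (-2.77 and -2.78). None of the tested B cell (3), T and NK cell (3) or megakaryocyte (2) markers was called. The part of these in the histone values was not tested.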

How the data were processed

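RNA of 16 samples was measured on one-color (Cy5) Agilent arrays, 4 in each of 4 groups taken from the labels. The authors deposited Agilent Feature Extraction 11.5.1.1 spot tables, whose processed signal is an intensity after background subtraction and detrending within the array, not scaled between arrays, with mm9 probe positions, and a deposited value table of log2 signals for 26793 probes, used as an alternative. The labels name limma without a version.

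Control spots and outlier spots (182 to 289 an array) were dropped. Each array's 75th percentile was subtracted from its log2 processed signals, and the spots of a probe were then averaged. Group means were fitted over the 16 arrays with limma 3.58.1 in R 4.3.3, Benjamini-Hochberg over 27433 tested probes. Where nothing says that samples are separate cultures or animals beyond the pools, p-values measure the spread between arrays, whose number limits the precision. 0 probes were saturated. The fit was tested on simulated data. The probes named are those called, the brightest of each class and the 3 largest t statistics of each simple comparison. Lists and members were chosen with earlier results of these data known. Alternatives covered background correction, scaling, filters, slide and replicate blocks, samples in the fit, the methods' t-test and leaving out each array. Sequences were read from the spot tables and RefSeq.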

Additional observations from a re-analysis of the deposited data

Results flagged for a closer look

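Of 80 groups of 4 values examined with Dixon's ratio (the gap of the end array to its neighbour over the group's range), 5 were above its 95% critical value, and chance gives about 1 in 20. The median of the H2A probes had a ratio of 0.833 in CDP_Normal, where array 5, on slide 1, lay at 4.79. The median of the H2B probes had a ratio of 0.881 in CDP_PyMT, with array 3 at 1.11. Hist2h2be had a ratio of 0.851 in CDP_PyMT, with array 5 at -1.36. Hist3h2bb-ps had a ratio of 0.830 in MDP_PyMT, with array 2 at -0.91. Hist1h2aa had a ratio of 0.857 in MDP_Normal, with array 4 at 3.34.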

How the results depend on the processing

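For CDPs against MDPs in tumor-free mice, the 1 called histone probe became 0 with normexp, the replicate block, only the groups compared, or the methods' t-test after Benjamini-Hochberg, 2 with the slide block, and 3 by the methods' t-test unadjusted (10.9% of all tested probes). In tumor-bearing mice it became 0 with only the groups compared or the adjusted t-test, and 3 by the unadjusted t-test (15% of all), which also gave 3 for the tumor change in MDPs (3.74% of all). With the slide block the median of the difference of the tumor changes was -0.22 and that of CDPs against MDPs in tumor-bearing mice 0.0085. The causes were not tested. Leaving out 1 array gave 0 to 1 calls in MDPs with a tumor (1 without MDP_PyMT 5), 0 to 1 in tumor-free and 1 to 2 in tumor-bearing mice (2 without MDP_Normal 3, MDP_PyMT 3 or 5, or CDP_PyMT 4, where the added probe was the weakly measured Hist1h2bp), and 0 for the tumor change in CDPs and for the difference. Medians then ran from 0.088 to 0.35 (tumor, CDPs), -0.029 to 0.25 (tumor, MDPs), -0.024 to 0.26 (difference), 0.11 to 0.39 (tumor-free) and 0.26 to 0.53 (tumor-bearing). Same-numbered samples correlated at over 0.1 in all 4 pairs of no comparison, and the replicate block changed no other count. These correlations were not corrected for slide, so they cannot show whether same-numbered samples came from the same mice. For the probe differences named by rule, 9 limma refits lost a call, 4 gained one and 0 reversed, with other probes and the t-test not counted. Among the histone probes, signal over background limits Hist1h2bp and the 3 untested probes.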
